A study of Homo sapiens with 7 samples.

Results

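HOXB13 and its close neighbour PRAC1 were examined through the promoter contacts recorded by H3K27ac HiChIP in 3 human cancer cell lines. In this assay, proximity ligation of chromatin is combined with precipitation of histone H3 acetylated at lysine 27, a mark of active promoters and enhancers, so that the read pairs report contacts of marked DNA. A loop joins 2 different stretches of DNA, called anchors, and its value is the number of read pairs that support it. The members are all loops that have an anchor over a 500 bp window centred on a start site of HOXB13 or PRAC1. They number 46 of the 354783 loops in the 3 lists, and all 46 belong to the LNCaP list.

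Ishikawa is an endometrial adenocarcinoma line, T-47D a breast carcinoma line and LNCaP an androgen-responsive prostate carcinoma line, and each is an established line that stands for 1 tumour. Per the labels, 2 Ishikawa samples received DMSO, the vehicle, and 2 received 10 nM E2 (17β-estradiol) for 1 h, while the treatment of the 1 T-47D and 2 LNCaP samples is not given. The samples of a line were combined into 1 list, so no value has a replicate error, and the Poisson and binomial intervals below cover counting error only, with read pairs treated as independent. The LNCaP list held 149226 loops with 1805322 read pairs, the Ishikawa list 163530 with 1040329 and the T-47D list 42027 with 351260, and a loop needed at least 3 read pairs to be listed. The Ishikawa libraries were cut with DpnII and the others with MboI, and sonication, read length and sequencing depth, deeper for Ishikawa per the study's methods, also followed this split, so protocol and cell line cannot be told apart in a comparison with Ishikawa. Of 4 marker genes chosen for each line, 4 of 4 had their highest promoter contact, relative to the list total, in LNCaP, 3 of 4 in T-47D and 3 of 4 in Ishikawa. The exceptions were TFF1 for T-47D, with 58 read pairs in LNCaP and 0 in the other lists, and HOXA11 for Ishikawa, at 0 in all lists.

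HOXB13 is the most posterior gene of the HOXB cluster and encodes a homeodomain transcription factor that marks prostate epithelium, where it binds chromatin together with FOXA1. Homeodomain proteins of the posterior HOX groups can bind DNA jointly with MEIS cofactors. PRAC1 encodes a small nuclear protein known from prostate, rectum and distal colon, and PRAC2, on the opposite strand, lies between PRAC1 and HOXB13. The other HOXB genes lie at lower coordinates, separated from HOXB13 by a long stretch that holds no other member of the cluster. All positions of loops and genes are on chromosome 17 of hg19 (GRCh37), counted from 1.

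All 3 genes of the HOXB13 neighbourhood lay in the same LNCaP anchor. HOXB13 (ENSG00000159184.8_7) occupies chr17:46802125-46806112 on the minus strand with 1 annotated start site at 46806112. PRAC1 (ENSG00000159182.5_8) occupies chr17:46799081-46799880 on the minus strand, and its start site lies at -6.23 kb from that of HOXB13, negative distances pointing to the HOXB cluster. PRAC2 (ENSG00000229637.4_12) occupies chr17:46800547-46802120 on the plus strand with 2 start sites. The anchor, chr17:46792258-46813929, spans 21.7 kb and also covers the microRNA gene MIR3185 and a long noncoding RNA gene. Each of the 46 loops therefore counts for all 3 promoters, and contacts of HOXB13, PRAC1 and PRAC2 cannot be told apart. The RefSeq promoter of PRAC1, from 250 bases before to 50 after the start, is shown as the member promoter for which sequence was at hand. It is given 5′ to 3′ on GRCh38.p14, unlike the loop coordinates, at chr17:48722469-48722768 on the minus strand.
PRAC1 promoter: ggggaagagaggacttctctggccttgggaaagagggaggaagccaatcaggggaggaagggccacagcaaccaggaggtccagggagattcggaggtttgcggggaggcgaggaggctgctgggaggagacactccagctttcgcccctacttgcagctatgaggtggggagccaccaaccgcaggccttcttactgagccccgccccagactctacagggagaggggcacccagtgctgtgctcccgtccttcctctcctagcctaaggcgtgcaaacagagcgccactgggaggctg

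The PRAC1 promoter had a GC content of 63.0% and held none of the 6 motifs searched on both strands. These were the forkhead core TGTTTAC, the HOXB13 site CAATAAA, the steroid receptor hexamer AGAACA, the GATA site AGATAA, the CTCF core and the restriction site GATC. Of 35116 RefSeq promoters of the same length, 3.42% held the forkhead core, 4.00% the HOXB13 site, 14.8% the steroid receptor hexamer, 10.3% the GATA site, 0.851% the CTCF core and 41.7% GATC. The first PRAC2 promoter held no match, and the second held 1 GATC.

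HOXB13, PRAC1 and PRAC2 each had 3243 read pairs in LNCaP and 0 in both the Ishikawa and the T-47D lists. The LNCaP value has a Poisson interval of 3132 to 3357 and corresponds to 1796 RPM (1735 to 1859), that is, read pairs scaled to a list total of 1000000. With each 0 set to a floor of 3 listed read pairs, the ratio of RPM was 623 for LNCaP over Ishikawa and 210 over T-47D. These ratios concern listed read pairs only, since the minimum of 3 applies to each loop and a sum over unlisted loops could exceed the floor. Genes with at least 10 times the contact of both other lists, read against the same floor, made up 1.84% of 20163 protein-coding genes for LNCaP, 1.9% for Ishikawa and 2.66% for T-47D. A promoter loop was listed in LNCaP for 58.1% of protein-coding genes, in Ishikawa for 57.3% and in T-47D for 49.2%, and 5.62% (1134 genes) had one in LNCaP and in neither other list. HOXB13 and PRAC1 belong to all of these LNCaP classes.

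The level in LNCaP stood near the top of all genes. Read pairs in HOXB13 and PRAC1 promoter loops were at percentile 99.91 among protein-coding genes, with 16 genes above, against a median of 72 read pairs over the 11716 genes linked in LNCaP. The number of loops, 46, was at percentile 98.7, against a median of 9. Among the 1134 genes linked in LNCaP alone, whose median was 21 read pairs, only ZBTB16, a zinc finger transcription factor gene looked up after the values were seen, had more, with 7849.

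The anchor itself was among the widest of the list, at percentile 99.7 of 43549 LNCaP anchors, whose median width was 3.23 kb. It was at percentile 99.7 for number of partners and 99.9 for read pairs. Per kilobase of anchor it carried 150 read pairs against a median of 9.14, which placed it at percentile 99.8. Width moves with these totals. Among 152 anchors within 20% of its width, whose median was 1068.5 read pairs and 34 partners, it stood at percentile 93.8 for read pairs and 79.9 for partners. Its place was thus lower among anchors as wide as itself than among all anchors.

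The contacts ran mainly upstream of HOXB13, away from the HOXB cluster. The 25 upstream loops held 3059 of the 3243 read pairs, or 94.3% (Clopper-Pearson interval 93.5 to 95.1), and the 21 loops on the HOXB cluster side held 184, or 5.67% (4.90 to 6.53). The latter share was 2.58% with a minimum of read pairs set equal relative to the list totals and 16.4% without the 2 strongest partners, the upstream side staying the heavier. Among 2508 LNCaP anchors with 20 or more partners, the heavier side held a median of 67.0% of read pairs, and 2.75% of them were as uneven. Upstream loops were also shorter, with a median span of 203 kb against 640 kb on the HOXB cluster side. The shares of the 2 sides were thus not compared at like distance. The median over all 46 loops was 467 kb, and it was 219 kb with a minimum of 5 read pairs, 99.4 kb with 10 and 93.2 kb with the minimum equal relative to the list totals.

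The upstream excess lay mostly within 250 kb and reached 500 kb. Distances here run from the centre of the HOXB13 anchor. Upstream, all 14 LNCaP anchors that were available at up to 250 kb were joined to that anchor, with 2999 read pairs. On the HOXB cluster side 6 of 7 such anchors were joined, with 70 read pairs. Between 250 and 500 kb there were 3 of 3 anchors and 20 read pairs upstream against 1 of 4 and 3 read pairs on the HOXB cluster side. Between 500 and 1000 kb the order turned, with 5 of 13 anchors and 29 read pairs upstream against 12 of 23 anchors and 95 read pairs on the HOXB cluster side. An anchor enters the list through its loops, and 2 of the joined anchors on the HOXB cluster side had no other loop, so the shares joined are partly set by the listing. The read pairs were many more upstream, but most of them had no counterpart at like distance. Within 50 kb, 2 upstream anchors held 2118 read pairs, and the HOXB cluster side had no anchor there. Between 50 and 100 kb, 5 upstream anchors held 703 read pairs, against 2 anchors and 50 read pairs on the HOXB cluster side.

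**Figure D1:**
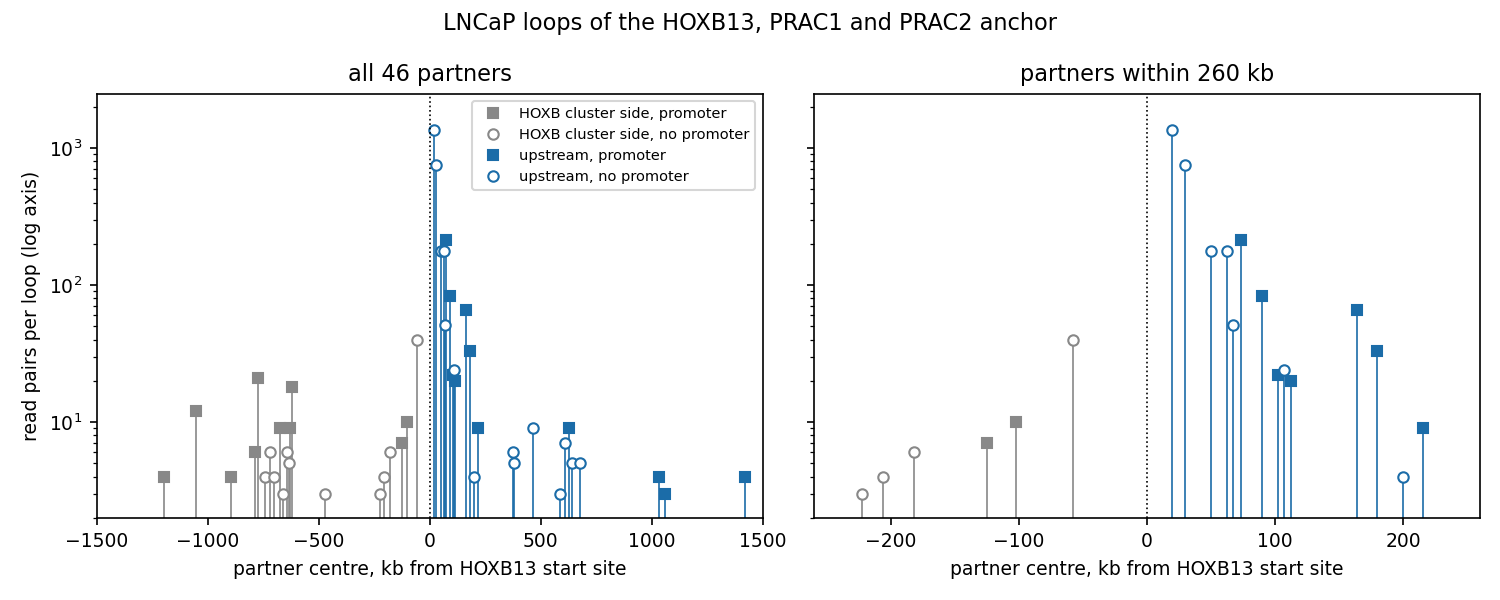
Read pairs per loop (log axis) of the LNCaP anchor over HOXB13, PRAC1 and PRAC2 against the distance of the partner's centre from the HOXB13 start site in kb, for all 46 partners (left) and for those within 260 kb (right). Points are loops, filled squares partners over a promoter and open circles partners without one, blue upstream and grey on the HOXB cluster side. The 2 tallest points, 1364 and 754 read pairs, lie 19.2 and 29.6 kb upstream.

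2 intergenic anchors between HOXB13 and TTLL6 carried most of the signal. The nearest, partner 1, at chr17:46820367-46830262 with its centre 19.2 kb from the HOXB13 start site, was supported by 1364 read pairs (1293 to 1438), 42.1% of the total. The next, partner 2, at chr17:46831923-46839427 and 29.6 kb away, had 754 (701 to 810), or 23.3%. Neither covered a promoter of a protein-coding gene. Together they held 65.3% of the read pairs, against a median of 35.9% for the top 2 partners of anchors with 20 or more partners, of which 1.71% were as concentrated.

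Both loops were also strong for their span. Of 8884 LNCaP loops whose span was within 20% of that of the partner 1 loop, the median was 8 read pairs, and partner 1 was at percentile 99.99. Against the 158 of these loops with at least 1 anchor within 20% of the HOXB13 anchor's width, the median was 57.5 and the percentile 99.7. The width of the partner was not matched. Partner 2 was at percentile 99.9 for span alone and 97.3 for span and width, the latter against a median of 41 over 203 loops. The HOXB13 anchor was the strongest partner of each, with 57.7% of the 2364 read pairs of partner 1 and 43.2% of the 1746 of partner 2.

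The sequences of both regions are shown because their loops carry most of the contact. Each is the stretch of 300 bases with the most matches to the motifs above, GATC left out, in that anchor, so that the matches were what chose it. They are read from the plus strand of GRCh37, with matches on either strand in capitals. The partner 1 stretch is chr17:46826547-46826846, with 3 steroid receptor hexamers and 1 HOXB13 site. The partner 2 stretch is chr17:46834876-46835175, with 1 steroid receptor hexamer and 1 HOXB13 site.
Partner 1: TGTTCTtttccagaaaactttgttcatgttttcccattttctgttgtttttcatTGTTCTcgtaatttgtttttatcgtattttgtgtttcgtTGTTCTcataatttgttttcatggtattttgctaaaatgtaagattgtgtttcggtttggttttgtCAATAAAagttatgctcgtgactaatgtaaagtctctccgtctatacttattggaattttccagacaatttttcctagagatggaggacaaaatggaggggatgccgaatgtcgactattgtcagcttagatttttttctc
Partner 2: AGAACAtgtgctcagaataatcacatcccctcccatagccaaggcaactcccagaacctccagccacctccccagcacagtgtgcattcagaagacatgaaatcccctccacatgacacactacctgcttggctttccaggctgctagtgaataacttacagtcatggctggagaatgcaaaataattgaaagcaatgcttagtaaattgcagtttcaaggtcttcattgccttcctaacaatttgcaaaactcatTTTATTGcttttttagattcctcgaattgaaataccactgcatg

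The GC content was 33.0% in the partner 1 stretch and 43.0% in that of partner 2. Over the central 1000 bases of each anchor, the 46 partners were set beside all LNCaP anchors. The forkhead core was present in 12 partners (26.1%) against 22.1% of all 43549 anchors, the HOXB13 site in 9 (19.6%) against 28.0%, the steroid receptor hexamer in 20 (43.5%) against 56.1% and the GATA site in 18 (39.1%) against 49.0%. The CTCF core was found in 1 partner (2.17%) against 1.34%. Such short matches are a description of the letters and not evidence of binding.

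The other strong partners lay in and around TTLL6, which encodes a tubulin polyglutamylase. Partner 3, at chr17:46877589-46881228 in a TTLL6 intron and over a TTLL6 start site, had 214 read pairs. Partners 4 and 5, at chr17:46854733-46858339 and chr17:46867382-46869884, also in TTLL6 introns but over no promoter, had 178 and 177. Partner 6, at chr17:46894043-46898504 and over the upstream TTLL6 promoter, had 83. Partner 8, at chr17:46872639-46873931 in a TTLL6 intron, had 51. These 5 loops were at percentiles 78.2 to 96.4 among loops of like span and anchor width, and the HOXB13 anchor was the strongest partner of each of the 5 anchors.

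Beyond TTLL6 the support was lower. Partner 7, over the promoter of ATP5MC1, which encodes the c subunit of mitochondrial ATP synthase, lay 164 kb away and had 66 read pairs. Partner 10, over the promoter of UBE2Z, a ubiquitin-conjugating enzyme gene, had 33. The promoter anchors of CALCOCO2, an autophagy receptor gene, had 22 and 20 read pairs, and an anchor in a CALCOCO2 intron had 24. SNF8, a gene of the ESCRT-II complex, and ZNF652, a zinc finger protein gene, had 9 each. The farthest partner, over the promoter of PPP1R9B, lay 1422 kb upstream with 4 read pairs. FAM117A had anchors with 4 and with 3 read pairs, the latter also over KAT7, a histone acetyltransferase gene.

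On the HOXB cluster side, partner 9, at chr17:46746494-46750555 in an intron of the long noncoding RNA gene LINC02086, was the strongest, with 40 read pairs (28.6 to 54.5). It lay at -57.6 kb from the HOXB13 start site and was at percentile 63.1 for span and width. HOXB9 was joined with 10 read pairs and the anchor over HOXB3 and HOXB6 promoters with 7, at percentiles 25.6 and 22.5 for span and width. An anchor in the antisense gene HOXB-AS1 had 6. Contacts with these HOXB promoters were thus listed, but below the median of loops of like span and anchor width.

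Further promoters on that side lay beyond the cluster. Among them were those of PRR15L with 21 read pairs at -776 kb, the sorting nexin gene SNX11 with 18 and, together with the heterochromatin protein gene CBX1, with 9 more, and the importin beta gene KPNB1 with 12 at -1055 kb. NFE2L1, a regulator of proteasome genes, had 9, LRRC46 with MRPL10 4 and NPEPPS, the farthest at -1196 kb, 4. PRR15L was at percentile 92.5 for span and width, SNX11 in its stronger loop at 88.9 and KPNB1 at 84.6.

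Of the 46 loops, 39 were above percentile 50 of loops of like span, with ties given their middle rank. Some of these, with 4 read pairs, equalled the median and did not exceed it. Once the width of the HOXB13 anchor was matched too, 24 were above percentile 50. These were 15 of 25 upstream and 9 of 21 on the HOXB cluster side. Partners over a promoter numbered 21, over 21 genes, and held 567 read pairs, while the 25 distal partners held 2676. Partner centres fell in introns in 28, in exons in 6 and in intergenic DNA in 12. In 5 loops the support was at the minimum of 3 read pairs, and 17 had 10 or more.

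**Figure D2:**
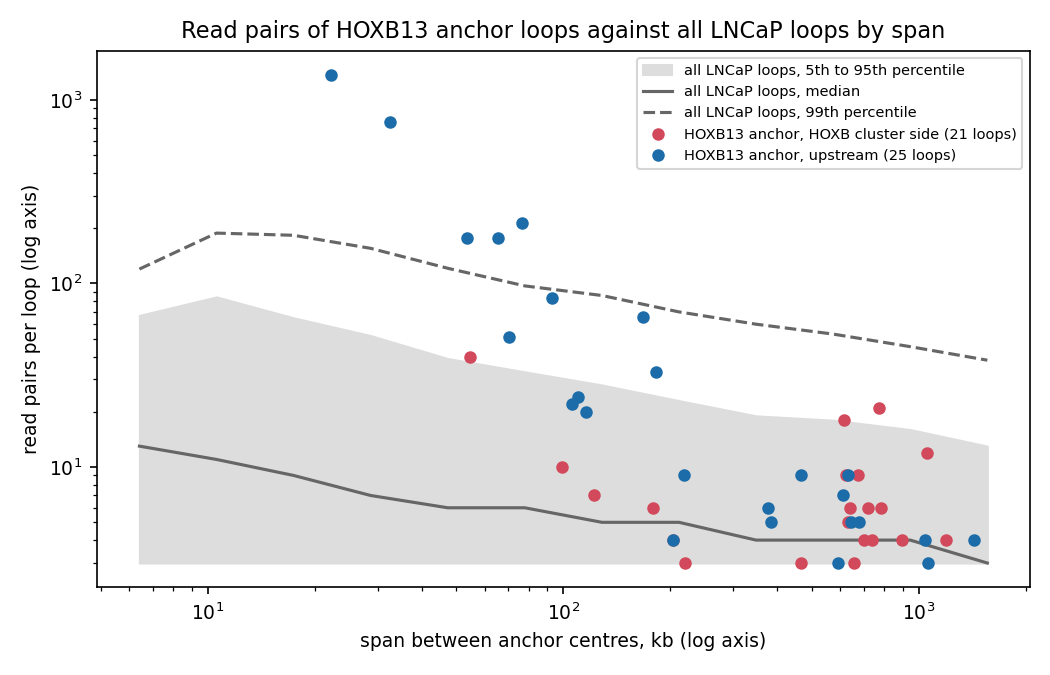
Read pairs per loop against span between anchor centres in kb (both log axes) for the 46 LNCaP loops of the HOXB13 anchor, with the median (solid line), the 99th percentile (dashed line) and the range from the 5th to the 95th percentile (grey band) of all LNCaP loops of that span. Blue points are 25 upstream loops and red points 21 loops on the HOXB cluster side. Of the 46, 39 are above percentile 50 of loops of like span, some of them equal to the median. Anchor width is not matched in this plot.

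The partners were also joined to each other. Of 1035 possible pairs of partners, 146 (14.1%) were joined by a LNCaP loop, with 2689 read pairs. Among the 14 upstream partners within 250 kb, 49 of 91 pairs (53.8%) were joined, with 1568 read pairs. Pairs with 1 partner on each side of HOXB13 were joined in 27 of 525 cases (5.14%) with 131 read pairs, against 75 of 300 (25.0%) for upstream pairs and 44 of 210 (21.0%) for pairs on the HOXB cluster side. Pairs on opposite sides also lie farther apart, and distance was not matched here. Within 260 kb of the HOXB13 start site the LNCaP list held 78 loops with 4690 read pairs, of which the 20 loops of the HOXB13 anchor held 3069 (65.4%).

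In Ishikawa and T-47D the region of the LNCaP anchor over HOXB13 held neither an anchor nor a read pair of any listed kind. The nearest Ishikawa anchors, chr17:46736059-46739783 and chr17:46826477-46836793, had their nearest edges 66.3 and 20.4 kb from the HOXB13 start site. The nearest T-47D anchors were chr17:46746494-46749989, at 56.1 kb, and chr17:46867382-46869593, at 61.3 kb. A listed count of 0 means fewer than 3 read pairs per loop, or no anchor called, and not that contact was absent. With no anchor there, none of the 46 loops could be found in either list.

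Many partner regions were nevertheless listed as anchors in the other lines. Of the 46 partner anchors, 25 (54.3%, interval 39.0 to 69.1) overlapped a T-47D anchor, against 26.5% of all LNCaP anchors, and 22 (47.8%, 32.9 to 63.1) overlapped an Ishikawa anchor, against 40.4%. Any overlap counted, and the partners were not matched to all anchors for width or promoter content. Partners 1 and 2 each overlapped an Ishikawa anchor and no T-47D anchor. Of the 146 loops that joined partners to each other, 21 (14.4%) were found in T-47D and 7 (4.79%) in Ishikawa. Of the 275 LNCaP loops of the region that do not use the HOXB13 anchor, 17.5% and 5.45% were found. The 275 include the 146, so the 2 sets of shares are not independent. Part of the surrounding contacts was thus listed in other lines, whereas those of HOXB13 were not.

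Loops of up to 2 Mb that passed over HOXB13 numbered 33 in LNCaP with 152 read pairs, 2 in Ishikawa with 13 and 2 in the T-47D list with 10. In Ishikawa, an anchor over HOXB3 to HOXB8, chr17:46647135-46697467, was joined across it to chr17:46826477-46836793, which overlaps partners 1 and 2, with 10 read pairs, and to CALCOCO2 with 3. In T-47D the LINC02086 anchor was joined across it to ATP5MC1 with 7 read pairs and to CALCOCO2 with 3. The T-47D anchor at LINC02086 had 3 loops with 15 read pairs in all, the remaining 5 joining HOXB7 and HOXB8. In LNCaP the same place had 9 loops with 85 read pairs, and 40 of them went to the HOXB13 anchor. No Ishikawa loop used it.

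**Figure D3:**
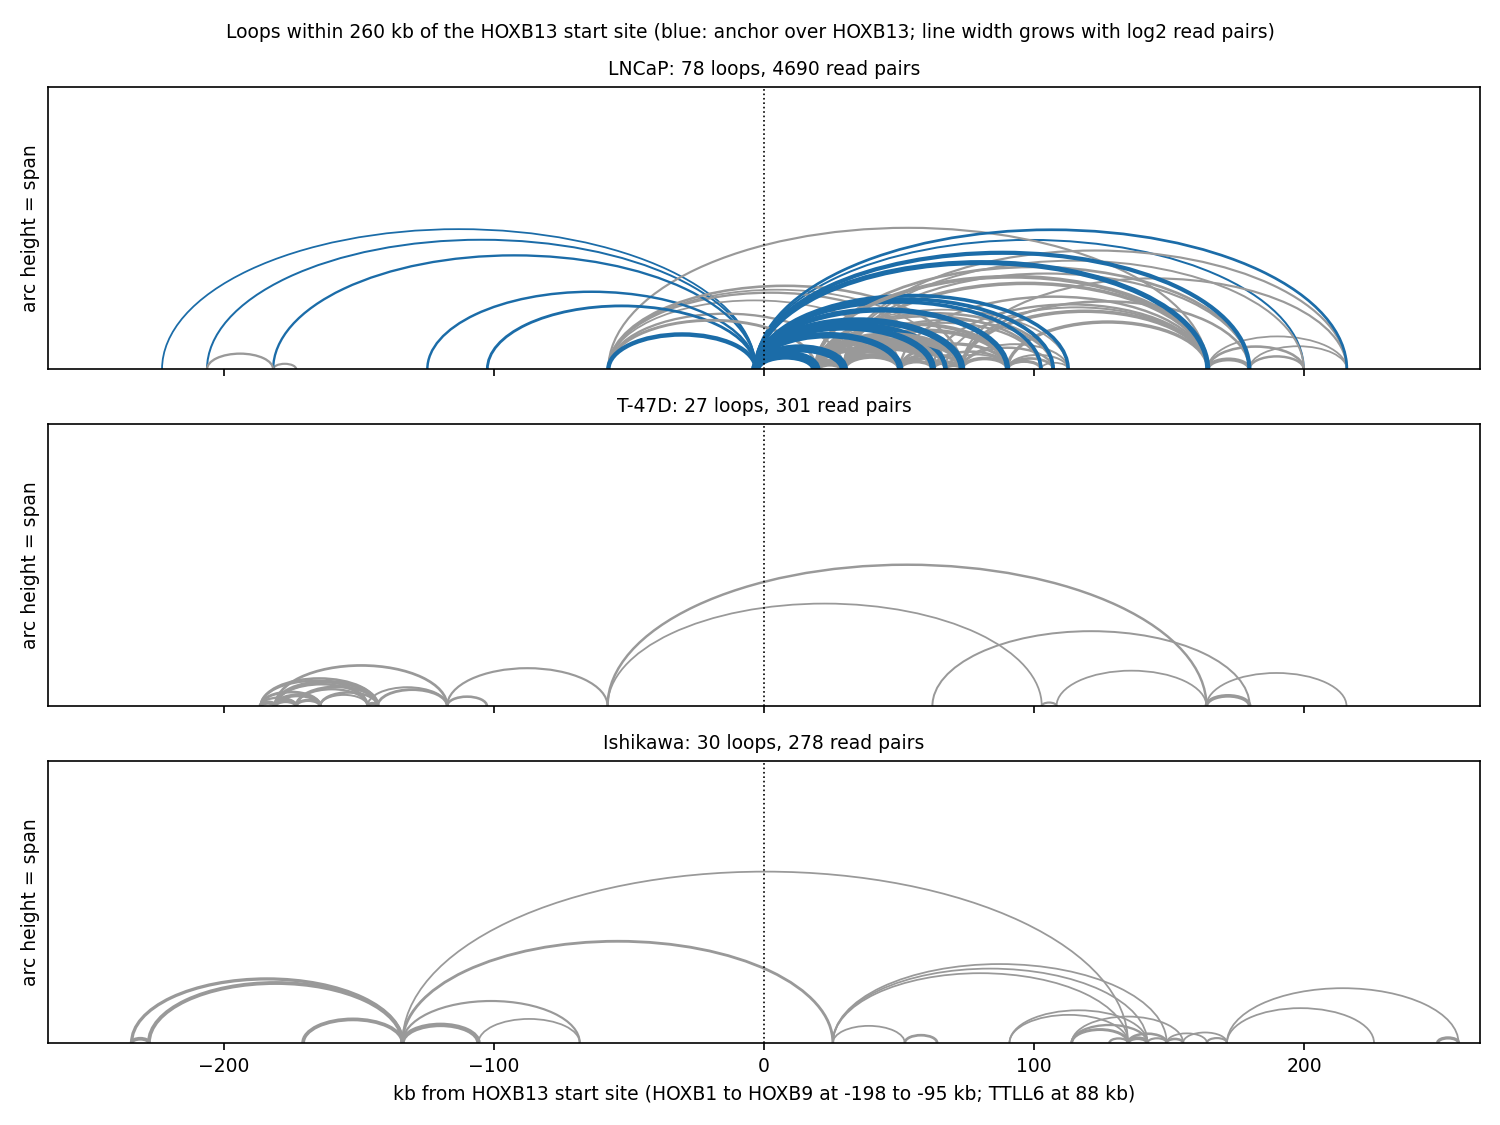
Loops within 260 kb of the HOXB13 start site (dotted line, x axis in kb) in the LNCaP (top), T-47D (middle) and Ishikawa (bottom) lists, each arc joining the centres of 2 anchors with a height proportional to span and a line width that grows with log2 read pairs. Arcs from the HOXB13 anchor are blue and others grey. Blue arcs occur in LNCaP alone (20 of 78 loops), and T-47D and Ishikawa have 27 and 30 loops, all grey.

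The HOXB cluster showed the opposite order. The promoters of HOXB1 to HOXB9 together had 25 read pairs in LNCaP (16.2 to 36.9), 262 in Ishikawa (231 to 296) and 236 in the T-47D list (207 to 268). This was 13.8 RPM (8.96 to 20.4) in LNCaP, 252 RPM (222 to 284) in Ishikawa and 672 RPM (589 to 763) in the T-47D list. In read pairs the intervals of Ishikawa and T-47D overlapped, and in RPM those of the 3 lists were apart. How often such intervals are apart over all genes was not counted, so nothing is concluded from this. In RPM the highest level was in T-47D and the lowest in LNCaP. The Ishikawa value rested on 2 anchors of 57.4 kb in all, 1 of them over HOXB3 to HOXB8 and shared by these 6 genes, the T-47D value on 5 anchors of 16.0 kb and the LNCaP value on 3 anchors of 9.35 kb.

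By gene, HOXB2 had 72 read pairs in T-47D and 0 in the other lists, and HOXB7 and HOXB8 had 0 in LNCaP, 262 in Ishikawa and 67 in the T-47D list. HOXB9 had 13 in LNCaP, 8 in T-47D and 0 in Ishikawa. HOXB3 had 12 in LNCaP, 262 in Ishikawa and 114 in the T-47D list. HOXB4 and HOXB5 were listed in Ishikawa alone, HOXB6 in Ishikawa with 262 and in LNCaP with 7, and HOXB1 in none. In LNCaP, 10 of the 13 read pairs of HOXB9 and all 7 of HOXB6 went to the HOXB13 anchor. Most LNCaP read pairs of the HOXB1 to HOXB9 promoters thus also count for HOXB13, and the 2 totals are not separate.

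Among the genes upstream of HOXB13, TTLL6 had 712 read pairs in LNCaP, 18 in Ishikawa and none listed for T-47D, and 297 of the 712 joined the HOXB13 anchor. ATP5MC1 had, in the same order of lists, 220, 8 and 34 read pairs, with 66 of the 220 to HOXB13. UBE2Z had 94, 0 and 25, with 33 to HOXB13, and CALCOCO2 84, 69 and 8, with 42 to HOXB13. SNF8 had 28, 0 and 3, with 9 to HOXB13. B4GALNT2, a glycosyltransferase gene farther upstream, had 0 in LNCaP, 40 in Ishikawa and 3 in T-47D, and GIP, GNGT2, ABI3 and PHOSPHO1 had 0 in all lists. IGF2BP1, an RNA-binding protein gene, had 3 in Ishikawa alone, and SKAP1, an adaptor protein gene beyond the HOXB cluster, had 25 in LNCaP and 10 in T-47D. Of the 21 other protein-coding genes with a start site within 500 kb, 9 had a promoter loop in LNCaP and 11 in each of the other lists, beside 58.1%, 57.3% and 49.2% of all genes in LNCaP, Ishikawa and T-47D, with medians of 0, 3 and 3 read pairs in LNCaP, Ishikawa and T-47D. None came near the 3243 of HOXB13 and PRAC1.

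**Figure D4:**
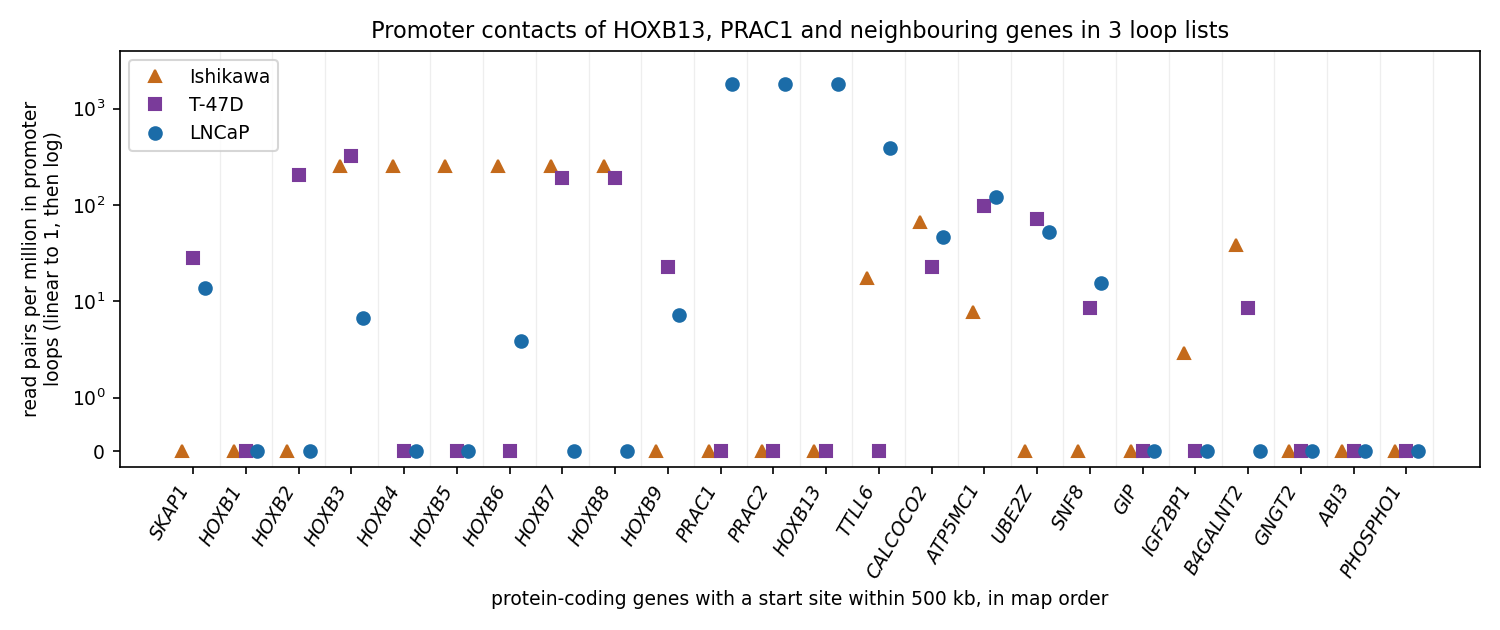
RPM (read pairs per 1000000) in promoter loops (linear up to 1, then log) of HOXB13, PRAC1 and the other protein-coding genes with a start site within 500 kb, in map order, in the Ishikawa (triangles), T-47D (squares) and LNCaP (circles) lists. HOXB13 and PRAC1 share 1 anchor and stand at 1796 RPM in LNCaP and at 0 in the others, while genes under the same Ishikawa anchor, HOXB3 to HOXB8, share 1 value.

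A list of 14 genes of proteins known to act with HOXB13 or related to it was read beside it. GRHL2, an epithelial transcription factor gene, had 3447 read pairs in LNCaP, 38 in Ishikawa and none listed for T-47D. FOXA1, a forkhead pioneer factor gene, had 6348 in LNCaP and 908 in T-47D, or 3516 and 2585 RPM, and 0 in Ishikawa. GRHL2 was among the 3 of 14 that had at least 10 times the RPM of both other lists in LNCaP, against 1.84% of all genes. HOXB13 lay below GRHL2 and FOXA1 in read pairs.

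The cofactor genes gave lower values. MEIS1 had 99 read pairs in LNCaP, 90 in Ishikawa and 18 in T-47D, while MEIS2 and MEIS3 had 0 in LNCaP. PBX3 had 18, 8 and 16 in the same order of lists. Of the corepressor genes, HDAC3 had 47, 0 and 32 and NCOR1 633, 78 and 3. The paralogues of HOXB13 in the other HOX clusters did not share its pattern. HOXA13 had 0 in all lists, HOXD13 3 in Ishikawa alone, and HOXC13 116 in LNCaP, 0 in Ishikawa and 251 in T-47D, where it was the 1 gene of the list past the 10-fold rule (2.66% of all genes). In all, 10 of the 14 had a promoter loop in LNCaP (58.1% of all genes), 9 in Ishikawa (57.3%) and 11 in T-47D (49.2%). Their median was 73 read pairs in LNCaP against 13 over all genes, 7 against 4 in Ishikawa and 5.5 against 0 in T-47D.

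The protein-coding genes whose contacts over the 3 lists were most like those of HOXB13 were PBOV1, KLK2, CARTPT, H2AC14 and H2BC14. Likeness was the Euclidean distance of log2(RPM + 1) over the 3 lists, and genes in the HOXB13 anchor were left out. PBOV1 lay at 0.08 with 3077 read pairs in 59 LNCaP loops, and KLK2, an androgen-regulated kallikrein gene of the prostate, at 0.14 with 2936 in 61. CARTPT, which encodes a neuropeptide precursor, lay at 0.47 with 2348 in 34 loops. The histone genes H2AC14 and H2BC14 shared 64 loops with 2093 read pairs and lay at 0.63. All 5 had 0 read pairs in Ishikawa and T-47D, which follows largely from their choice by likeness to HOXB13.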

How the data were processed

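H3K27ac HiChIP of 4 Ishikawa, 1 T-47D and 2 LNCaP samples was used. The authors aligned reads to hg19 with HiC-Pro, called loops with hichipper, and removed loops with fewer than 3 read pairs or a high false discovery rate. Versions are not given in the sources used here. Deposited values are counts of read pairs per loop without depth scaling, with 1 list per line. The Ishikawa list came as 4 parts, summed here and never assigned to a sample or treatment.

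Anchor edges on chromosome 17 fell at GATC of GRCh37 in 100% of anchors of each list, within 4 bases. Genes were the 20163 protein-coding genes of GENCODE on GRCh37, outside the mitochondrial genome, with promoters of 500 bp around each start site. Read pairs of promoter loops were summed per gene and scaled to a list total of 1000000 (RPM). Intervals are at the 95% level (exact Poisson, Clopper-Pearson), and the floor was 3 read pairs per list. Because each line had 1 list, no test between lines was made. Spans were matched within 20%. For width, a loop needed at least 1 anchor within 20% of the HOXB13 anchor's width, and the partner's width was not matched.

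Members, marker genes and related genes were chosen with earlier results of these data known. Named beside the members are all genes within 500 kb, genes of the same anchor, the 5 most alike genes, and partners that were among the 10 strongest, the farthest or over a promoter; some of these genes are not reported here. The counting of promoter loops was tested on simulated data, where loops planted at 200 of 20163 genes were recovered for 200. Alternatives were minima of 5 and 10 read pairs, a minimum equal relative to the list totals, promoters of 2000 bp, 1 start site per gene, a span window, Ishikawa loops in more than 1 part and a stricter overlap. Rows joining an anchor to itself were left out. Python 3.11.15, pandas 2.3.3, scipy 1.17.1, numpy 2.4.6 and matplotlib 3.10.9 were used.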

Additional observations from a re-analysis of the deposited data

Results flagged for a closer look

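Read pairs that join an anchor to itself were outside the loops compared above. Within 260 kb of the HOXB13 start site they numbered 399 over 12 anchors in Ishikawa and 198 over 10 anchors in T-47D. In Ishikawa 327 of the 399 lay at the wide anchor over HOXB3 to HOXB8, chr17:46647135-46697467. In T-47D 47 lay at the HOXB7 and HOXB8 anchor, chr17:46686165-46691528, 38 at chr17:46623337-46627043 and 34 at the ATP5MC1 anchor, chr17:46968449-46971411. None lay over the HOXB13 anchor, and the LNCaP list holds no such pairs, so that the lines cannot be compared on them.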

How the results depend on the processing

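The read pairs and loops of HOXB13 and PRAC1 in Ishikawa and T-47D stayed at 0 in the alternatives run, as no anchor lay there, and this says nothing about their stability. In LNCaP, HOXB13 and PRAC1 had 33 loops with a minimum of 5 read pairs, 3087 read pairs in 17 loops with 10, and 3065 in 15 loops with a minimum equal relative to the list totals (15.4 read pairs in LNCaP). The median span was 219, 99.4 and 93.2 kb in the same order. The share toward the HOXB cluster was 4.85% with a minimum of 5, 3.27% with 10 and 2.58% with the minimum relative to list totals, and 16.4% without the 2 strongest partners, an alternative chosen after seeing the data. The percentile among genes was 99.97 with 1 start site per gene and 99.93 per kilobase of anchor, the latter also chosen after seeing the data. No paired analysis was possible because each list combines its samples into 1 count per loop and no result comes from a test. Leaving out a replicate was not possible for the same reason. Loops under 3 read pairs are not listed, so a weaker contact of HOXB13 in Ishikawa or T-47D would not be seen.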

Other observations

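The 4 parts of the Ishikawa list, which the labels tie to no sample, each held loops of the HOXB1 to HOXB9 promoters. They numbered 15 with 81 read pairs, 9 with 33, 14 with 74 and 16 with 74. None of the 4 parts held a row over the LNCaP anchor of HOXB13 and PRAC1.

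The LNCaP list holds no loop longer than 2 Mb anywhere, so it could not show longer ones passing over HOXB13. Of Ishikawa and T-47D, only T-47D had such loops. They brought its total to 8 loops with 73 read pairs, and the strongest, of 44 read pairs, joined chr17:43660113-43664159 to an LRRC37A3 promoter anchor at chr17:62914248-62917701.

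The CTCF core motif was found in 2 of the partner anchors over their whole length, those over the NFE2L1 promoter (chr17:46129505-46129516, plus strand) and over the CBX1 and SNX11 promoters (chr17:46175075-46175086, minus strand), and in no part of the HOXB13 anchor. The HOXB13 anchor held 6 HOXB13 sites, 13 steroid receptor hexamers (AGAACA), 10 GATA sites and 3 forkhead cores. Per kb, each of these was below the value over all LNCaP anchors. HOXB13 sites stood at 0.2769 against 0.3276 and steroid receptor hexamers at 0.5999 against 0.8484. GATA sites stood at 0.4614 against 0.7554 and forkhead cores at 0.1384 against 0.1969.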
